A study of Mus musculus with 1078 samples.

Results

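TGF-beta signalling in GL261 tumors was read through 9 genes chosen by name. They were the ligand genes Tgfb1, Tgfb2 and Tgfb3, the receptor genes Tgfbr1, Tgfbr2 and Tgfbr3, the co-receptor gene Eng, the feedback inhibitor gene Smad7 and the target gene Tgfbi. All 9 were among the 21765 genes of the deposited table, and each was followed through 1078 single cells. GL261 is a mouse glioma line that was grown in the brains of C57Bl/6 mice, aged 6 to 8 weeks at the start. Cells came from tumors given losartan alone (60 mg per kg daily for 2 weeks), losartan+anti-PD1, anti-PD1 alone or control injections of PBS or IgG. Anti-PD1 was given after 1 week of losartan or PBS as 3 doses of 200 μg per mouse, 3 days apart. Live cells were sorted in 4 ways (CD45-positive, CD45-negative, CD3-positive and CD31-positive) and sequenced by Smart-seq2, a plate method that copies full-length RNA from 1 cell per well. The submitters gave each cell 1 of 8 type labels, with 330 T cells at the most and 33 B cells and 33 oligodendrocytes at the least, and the cells per group are given with each comparison.

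The TGF-beta ligands are secreted in a latent form, held by latency proteins in the matrix until integrins or proteases release them. Released ligand binds the type II receptor (Tgfbr2), which activates the type I receptor (Tgfbr1), and this in turn phosphorylates Smad2 and Smad3, which enter the nucleus with Smad4. Smad7 is induced by the pathway and blocks it, and endoglin (Eng) is a co-receptor of endothelial cells that works mainly with the type I receptor Acvrl1 and BMP ligands. In the brain, TGF-beta is known to maintain the resident gene programme of microglia, and in tumors it is known for effects on vessels, matrix and T cells. Losartan blocks the type 1 angiotensin II receptor, and angiotensin II is known to raise TGF-beta activity in fibrotic tissue, so the comparisons asked how the pathway's own genes stood in losartan-treated tumors.

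Levels are given per 100000 of each cell's total (TP100K). In the CD31-positive and CD3-positive sorts the values were TPM, a unit corrected for gene length, so genes can be compared with each other. In both CD45 sorts they were expected read counts, which also grow with gene length, so genes were compared only with themselves. Treatments were compared only within a sort. The labels name no animal, and each sort and treatment filled 1 plate, so a treatment had 1 sample per sort and no test could be run. Treatment and plate cannot be told apart. How many mice stood behind a plate is not given in the sources used here. Shares of cells above 0 have exact (Clopper-Pearson) 95% intervals, which cover counting error over cells only, since PCR reads without molecular identifiers are not independent molecules. Where a gene was at 0 in all cells of a group, the share that this allows is taken as 3 cells of the group's total, a simpler limit than the exact interval. This limit is printed in some places only but holds for every group at 0, and for 8 cells it is 37.5%. Ratios are log2 of (mean TP100K + 1) between groups, a scale that understates differences of low genes. A gene counted as measured in a comparison where 10% or more of the cells in either group were above 0, and a log2 ratio of at least 1 in size counted as 2-fold. The losartan and the losartan+anti-PD1 comparisons share their control cells, so their values are set side by side only.

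Cells of the CD31-positive sort had a median of 4107 genes above 0, and those of the CD3-positive sort had 2060.5. Cells of the CD45-negative sort had a median of 6613.5 genes and 494100 counts, and those of the CD45-positive sort had 3249.5 genes and 286371 counts. The labels were set against marker lists. In each group of at least 10 endothelial, T, NK, B and malignant cells, every gene of the label's own list was above 0 in some cell. A single cell with reads of a gene is enough to meet this check, and markers of other types are not part of it. It therefore does not show that each cell is rightly labelled. No such check is given for oligodendrocytes or for myeloid cells, whose dendritic and macrophage marker sums stand with their values below. The microglia label did not meet it in all its groups. P2ry12, Tmem119, Siglech and Sall1, which mark resident microglia, were all at 0 in 11 of 30 losartan microglia, in 12 of 13 losartan+anti-PD1 microglia and in 16 of 28 control microglia. Values for microglia are therefore given also by these markers.

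The genes lie on separate chromosomes in the GENCODE vM21 annotation of GRCm38. Tgfb1 is at chr7:25687002-25705077 on the plus strand, Tgfb2 at chr1:186622792-186705989 on the minus strand and Tgfb3 at chr12:86056745-86079041 on the minus strand. Tgfbr1 is at chr4:47353222-47414931 on the plus strand, Tgfbr2 at chr9:116084293-116175360 on the minus strand and Tgfbr3 at chr5:107106570-107289629 on the minus strand. Eng is at chr2:32646595-32682669 and Tgfbi at chr13:56609523-56639562, both on the plus strand. The table gives 1 value per gene, with no split by exon or isoform.

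In the TPM sorts the highest mean levels of the 9 genes were those of Tgfbi in 10 microglia on the CD3-positive plates (276.5 TP100K) and of Eng in endothelial cells (113.3 TP100K), so their promoter sequences are shown (RefSeq, GRCm38.p6, plus strand, ending at the base before the annotated start). Capitals mark GGAA or its reverse complement TTCC, the core letters read by ETS factors, a family that includes regulators of endothelial and myeloid genes.
Eng, chr2:32646345-32646594: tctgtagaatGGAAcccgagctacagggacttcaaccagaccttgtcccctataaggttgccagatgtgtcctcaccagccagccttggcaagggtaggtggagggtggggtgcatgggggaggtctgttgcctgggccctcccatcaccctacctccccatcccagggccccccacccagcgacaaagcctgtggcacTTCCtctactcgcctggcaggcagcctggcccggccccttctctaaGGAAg
Tgfbi, chr13:56609336-56609522: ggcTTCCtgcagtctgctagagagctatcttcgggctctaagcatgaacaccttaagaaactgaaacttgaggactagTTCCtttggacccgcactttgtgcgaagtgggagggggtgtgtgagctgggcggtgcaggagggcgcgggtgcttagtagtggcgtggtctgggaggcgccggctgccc
The Eng window held 3 such matches and the shorter Tgfbi window held 2, and 93.4% of 32851 RefSeq mouse promoters held at least 1 in the same 250 bases, so the letters alone single out neither gene. Each window also held 2 matches to CAGAC or GTCTG, the letters of a Smad box, which 42.2% of promoters held. GAGGAAG or CTTCCTC, the extended ETS letters, was found once for Eng and not for Tgfbi, and 10.6% of promoters held it. A match is a description of the letters and not a shown site.

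Among the ligands, Tgfb2 was read mainly in endothelial cells and Tgfb3 in malignant cells, and few T cells carried ligand reads. Tgfb2 was above 0 in 27.7% of endothelial cells of the CD31-positive sort (interval 21.5 to 34.5%), with a mean of 2.80 TP100K and a highest cell of 61.8 TP100K. In malignant cells of the same sort it was above 0 in 5.98% of cells, and in T cells it was at 0 in all 327 cells. Tgfb3 had the opposite order, above 0 in 53% of malignant cells with a mean of 1.69 TP100K, against 2.05% of endothelial cells. In the CD45-negative sort, Tgfb3 was above 0 in 48% of malignant cells and in 32.3% of 31 oligodendrocytes. The endothelial and malignant intervals did not overlap for either gene. Tgfb1, the main ligand of immune cells, was above 0 in 28.3% of 53 NK cells, 27.8% of 79 microglia and 23.3% of 73 myeloid cells of the CD45-positive sort, shares that lie within each other's counting error. It was above 0 in 5.13% of endothelial cells and 3.98% of T cells, and it was at 0 in every malignant cell of the CD31-positive sort.

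Among the receptors, Tgfbr2 was read in every cell type but oligodendrocytes. In the sorts where values are per length, its mean was 16.1 TP100K in endothelial cells (above 0 in 74.4% of cells, interval 67.6 to 80.3%), 5.62 TP100K in T cells (33.9%) and 1.15 TP100K in malignant cells (52.1%). Malignant cells thus held it more often but at a lower mean than T cells. More genes were also detected per malignant cell, with medians of 7008 in losartan and 7188 in control malignant cells against 1954 and 2039 in T cells of the same treatments. In the CD45 sorts it was above 0 in 55.4% of malignant cells, 53.2% of microglia, 52.1% of myeloid cells, 43.4% of NK cells and 42.4% of 33 B cells, neighbours in an order that their counting errors do not separate. Oligodendrocytes stood apart, with Tgfbr2 in 0 of 31 cells, which allows a share of up to 9.68%.

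Tgfbr1, the type I receptor, had a mean of 53.6 TP100K in microglia over all treatments, with 64.6% of cells above 0. This mean pools groups that differ widely, as given with the microglia below. Myeloid cells, read in the same sort, had a mean of 9.09 TP100K with 47.9% above 0, but in control tumors the means were 17.6 TP100K in microglia and 11.9 TP100K in myeloid cells. NK cells had 15.1% above 0. Endothelial cells had Tgfbr1 above 0 in 9.74% of cells and T cells in 8.26%, against 42.7% of malignant cells on the CD31-positive plates. The means had another order, at 0.505 TP100K in endothelial, 0.633 TP100K in T and 0.439 TP100K in malignant cells of the TPM sorts. In the CD45-negative sort Tgfbr1 was above 0 in 58.8% of malignant cells and 32.3% of oligodendrocytes. The canonical pathway needs both receptors in 1 cell. Reads of both Tgfbr1 and Tgfbr2 were found in 6.67% of endothelial cells, 3.67% of T cells and 23.9% of malignant cells in the TPM sorts. With both genes at 1 TP100K or more, the shares were 4.62%, 2.45% and 5.13% in that order. The higher malignant share thus rested mostly on values below 1 TP100K. In the CD45 sorts reads of both at any level were found in 44.3% of microglia, 40.5% of malignant cells, 27.4% of myeloid cells, 5.66% of NK cells and 3.03% of B cells. A cell with few reads can miss either gene, so these shares are lower limits that differ in depth between types.

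The co-receptors were largely endothelial. Endoglin (Eng) was above 0 in 96.9% of endothelial cells (interval 93.4 to 98.9%) with a mean of 113.3 TP100K and a median of 96.4 TP100K, the highest mean of the 9 genes in endothelial, malignant or T cells. It was above 0 in 11.1% of malignant cells with a mean of 0.63 TP100K, and in 0.917% of T cells. In the CD45-positive sort it was found in 17.7% of microglia and 12.3% of myeloid cells, and in 0 of 53 NK cells and 0 of 33 B cells. Betaglycan (Tgfbr3), which presents TGF-beta2 to the type II receptor, was above 0 in 35.4% of endothelial cells with a mean of 1.79 TP100K and in 8.56% of T cells. It was at 0 in all microglia and all myeloid cells of the CD45-positive sort, and it was found in 22.6% of oligodendrocytes.

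The inhibitor and the target were spread differently. Smad7 was above 0 in 83.9% of oligodendrocytes (interval 66.3 to 94.5%), where Tgfbr2 was not seen. The next highest share was 45.2% of myeloid cells, malignant cells were at 24.8% and 22.3% in the CD31-positive and CD45-negative sorts, NK cells at 22.6%, endothelial cells at 21.5% and T cells at 11%. The means in the TPM sorts had another order, at 2.33 TP100K in endothelial, 0.733 TP100K in T and 0.209 TP100K in malignant cells. Microglia were at 22.8% over all treatments, a pool of 46.7% with losartan and 3.57% in control tumors. Tgfbi, a secreted matrix protein named for its induction by TGF-beta, was a gene of microglia and myeloid cells, above 0 in 73.4% of microglia (mean 227.3 TP100K, highest 1392 TP100K) and in 65.8% of myeloid cells (mean 50.3 TP100K). Lower shares were read in malignant cells (32.5% in the CD31-positive and 29.7% in the CD45-negative sort), endothelial cells (8.21%) and T cells (5.50%). The dot plot of levels by cell type shows these patterns side by side.

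**Figure D1:**
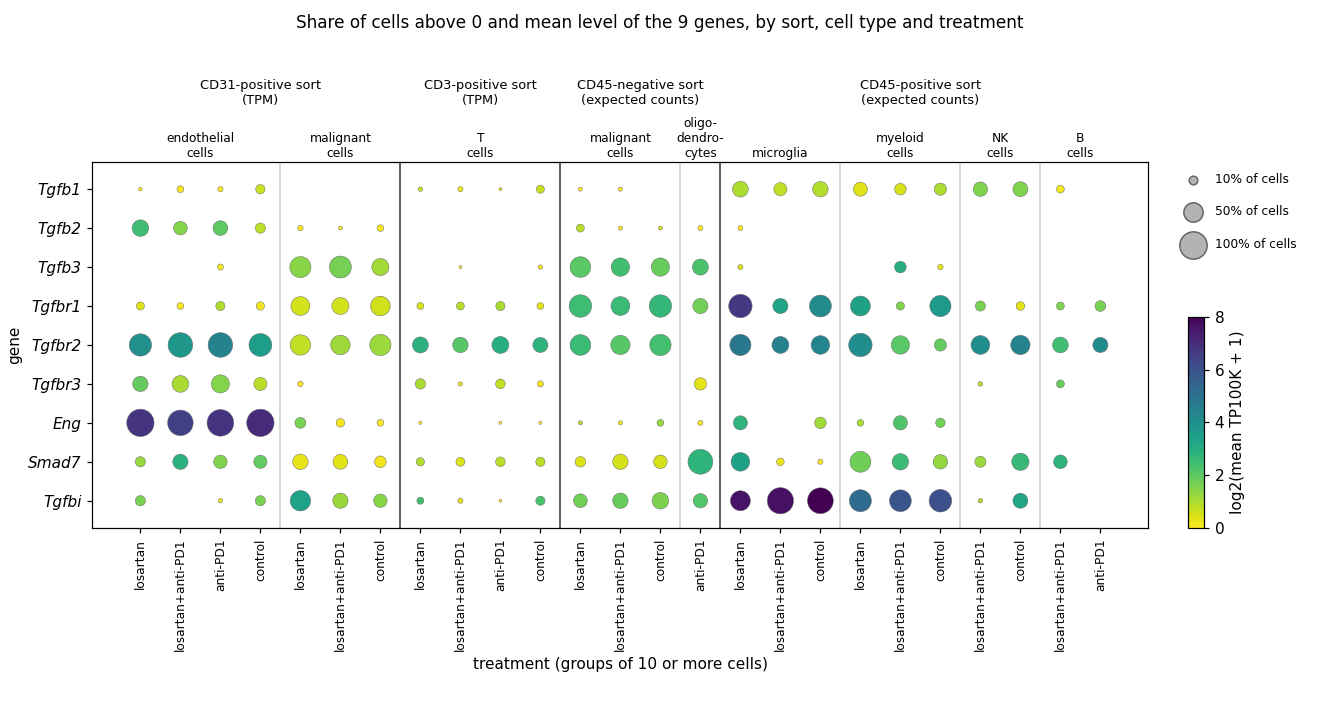
Each dot is 1 gene (rows) in the cells of 1 sort, label and treatment (columns, groups of at least 10 cells). Dot area is the share of cells above 0 in percent and colour is log2 of (mean TP100K + 1). Eng has its largest dots in endothelial columns, Tgfbi in microglia and myeloid columns and Tgfb3 in malignant columns, and Smad7 has its largest dot in oligodendrocytes, at 82.8% of 29 cells from anti-PD1 tumors.

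In endothelial cells, losartan was set against control with 57 against 43 cells, which had medians of 3126 and 3620 genes. Tgfb2 and Tgfbr3 were 2-fold higher with losartan, Tgfbr2 was 0.46 higher on the log2 scale but -0.49 when cells were scaled by their 75th percentile and -0.61 within cluster 7, and Eng, the dominant gene, was 0.27 lower. Tgfb2 was above 0 in 21 of 57 losartan cells (36.8%, interval 24.4 to 50.7%) and in 6 of 43 control cells (14%, interval 5.30 to 27.9%). Its mean was 4.44 TP100K with losartan, 1.82 TP100K with losartan+anti-PD1 and 2.94 TP100K with anti-PD1, against 0.723 TP100K in control cells, and the highest cells were 61.8, 9.38, 33.2 and 11.8 TP100K. The median cell was at 0 in all 4 groups and the groups overlap, so the log2 ratio of 1.66 for losartan rests on more cells with reads and on higher values in them. The ratio stayed above 0 in all 8 alternatives tried, between 0.43 and 2.46, and was 2-fold in 4 of them. Tgfbr3 had means of 2.72 TP100K with losartan, 1.06 TP100K with losartan+anti-PD1 and 1.80 TP100K with anti-PD1, against 0.82 TP100K in control cells. Its log2 ratio for losartan was 1.03, in a range of 0.01 to 1.64 over the alternatives, and 59.6% of the control sum came from 1 cell, so its size is uncertain.

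Tgfbr2 had the highest mean of the 3 receptors in every endothelial group. Its mean was 15.3 TP100K with losartan (median 9.88, highest 75.6), 12.5 TP100K with losartan+anti-PD1 (median 8.10, highest 53.9) and 20.3 TP100K with anti-PD1 (median 14.3, highest 97.9), against 10.8 TP100K in control cells (median 6.62, highest 48.3). All 4 groups overlap and hold cells at 0. Eng was above 0 in 57 of 57 losartan, 14 of 16 losartan+anti-PD1, 75 of 79 anti-PD1 and 43 of 43 control cells. Its median was 95.8 TP100K with losartan (6.31 to 254.7), 74.6 TP100K with losartan+anti-PD1 (0 to 193.1) and 96.4 TP100K with anti-PD1 (0 to 332), against 103.97 TP100K in control cells (9.38 to 482). These ranges overlap throughout, and Eng's log2 ratio to control was -0.27 with losartan and -0.60 with losartan+anti-PD1.

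Smad7 and Tgfbi rested on few endothelial cells. Smad7 was above 0 in 8 of 57 losartan, 5 of 16 losartan+anti-PD1 and 19 of 79 anti-PD1 cells, against 10 of 43 control cells, with means of 1.43, 6.39, 1.91 and 2.81 TP100K in that order. With losartan+anti-PD1 54.8% of the sum came from 1 cell, and the log2 ratio of 1.35 to anti-PD1 alone stayed 2-fold in 1 of 6 alternatives. Tgfbi was above 0 in 8 of 57 losartan cells (mean 2.04 TP100K), in 0 of 16 losartan+anti-PD1 cells, which allows a share of up to 18.8%, and in 2 of 79 anti-PD1 cells, against 6 of 43 control cells (mean 2.03 TP100K). Its log2 ratio was 0.00 for losartan and -1.60 for losartan+anti-PD1, and the second of these was -0.999 when the highest cell of each group was left out. Tgfb1 was above 0 in 1 of 57 losartan cells and 5 of 43 control cells, and Tgfbr1 in 5 losartan and 4 control cells. Tgfb3 was seen in 4 of 79 anti-PD1 cells and in no other endothelial cell of this sort.

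Read against all genes, the endothelial counts are small numbers. With losartan, 2 of the 7 measured members were 2-fold apart from control, where 16.6% of 9846 genes were. With losartan+anti-PD1 it was 1 of 7, where 25.1% of genes were, while losartan+anti-PD1 set against anti-PD1 had 1 of 6, where 26.8% were. The median log2 ratio of the members in these 3 comparisons was 0.00, 0.18 and -0.46, beside 0.07, -0.06 and -0.15 for all genes measured. A share near the background is not a result about the members, here and in the comparisons that follow.

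Endothelial cells fell into 3 clusters that the treatments filled unevenly. Cluster 3 held 29 of 57 losartan, 5 of 16 losartan+anti-PD1, 78 of 79 anti-PD1 and 3 of 43 control cells, cluster 7 held 24, 4, 1 and 28, and cluster 12 held 4, 7, 0 and 12. The members differed between clusters as well. Tgfbi was above 0 in 15 of 57 cells of cluster 7 (26.3%), in 1 cell of cluster 3 (0.87%) and in 0 of 23 cells of cluster 12. Tgfb2 was above 0 in 31.3% of cluster 3 and 31.6% of cluster 7, and in 0 cells of cluster 12, which also had Tgfbr2 in only 30.4% of cells. Eng was above 0 in at least 95.7% of cells of each cluster. The clusters were made from the same cells and genes, so these values describe them and test nothing.

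Within cluster 7, the only one with over 20 cells of both groups, Tgfb2 was again higher with losartan. Reads were found in 11 of 24 losartan cells (45.8%, mean 2.03 TP100K) and in 5 of 28 control cells (17.9%, mean 0.80 TP100K), a log2 ratio of 0.75. Tgfbr2 was the other way round there, at 9.02 TP100K with losartan and 14.3 TP100K in control cells. Tgfbr3 was at 0.92 TP100K with losartan and 0.161 TP100K in control cells, a log2 ratio of 0.73. The part that the uneven clusters play in the pooled ratios was not tested beyond these values. The per-cell plot for endothelial cells shows the clusters by colour. Of 5 endothelial cells from anti-PD1 tumors found in the CD45-negative sort, all 5 had Eng and Tgfbr3 reads and 4 had Tgfbr2 reads.

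**Figure D2:**
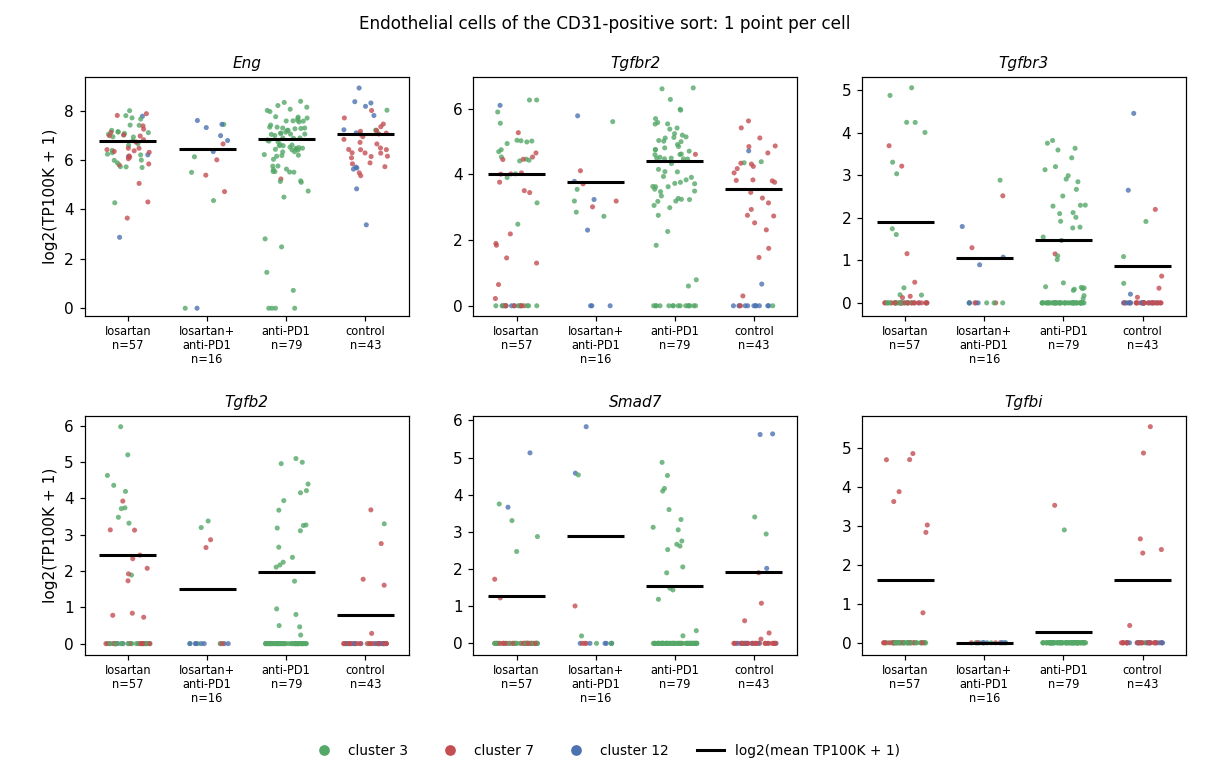
Each point is 1 endothelial cell of the CD31-positive sort, with log2(TP100K + 1) on the vertical axis for Eng, Tgfbr2, Tgfbr3, Tgfb2, Smad7 and Tgfbi, treatments along the horizontal axis colour for cluster 3, 7 or 12 and a line at log2(mean + 1). Eng is above 0 in nearly all cells, with medians from 74.6 to 103.97 TP100K, while Tgfb2 and Tgfbi sit at 0 in most cells and anti-PD1 cells are almost all of cluster 3.

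Other genes of the pathway were read from 4 lists: ligand latency and activation (16 genes), Smad signalling (16), response genes (18) and the BMP and ALK1 branch (17), ALK1 being the protein of Acvrl1. In endothelial cells with losartan, 13 of 15 measured Smad list genes were below 0, with a median log2 ratio of -0.57. The response list had 10 of 13 below 0 with a median of -0.47, beside 0.07 for all genes. The share of all genes below 0 is not given, so such counts are set beside the all-gene median only. By size, where 16.6% of all genes were 2-fold apart, 0 Smad genes were 2-fold higher and 2 were lower, 2 response genes were higher and 0 lower, 1 latency gene was higher and 2 were lower, and 0 BMP genes were higher and 1 was lower. Smad3, the signal-carrying Smad, was at 0.91 TP100K with losartan and 3.63 TP100K in control cells (-1.28), and Smurf2, a ubiquitin ligase that removes receptors, at 1.55 TP100K with losartan and 4.80 TP100K in control cells (-1.18). Thbs1, the matrix protein that releases latent TGF-beta, was at 0.614 TP100K with losartan and 3.86 TP100K in control cells (-1.59), and the protease gene Adamts1 at 11.2 TP100K with losartan and 34.4 TP100K in control cells (-1.54). Higher with losartan were Ltbp4, a latency protein (16.1 against 5.71 TP100K in control cells, 1.35), and the transcription factor genes Tsc22d1 (267.8 against 129.8 TP100K, 1.04) and Klf10 (4.08 against 1.52 TP100K, 1.01). Sparc, a matrix protein, was at 187.8 TP100K with losartan and 309 TP100K in control cells (-0.72), and Ctgf at 1.32 TP100K with losartan and 2.85 TP100K in control cells (-0.73). Acvrl1, the partner of endoglin, was at 30.7 TP100K with losartan and 18.1 TP100K in control cells (0.73). Bmp6 was at 0.673 TP100K with losartan and 3.52 TP100K in control cells (-1.43). All these values pool the endothelial clusters. Cluster 3 held 50.9% of losartan and 6.98% of control cells, and the part of the clusters in these values was not tested.

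With losartan+anti-PD1, the same endothelial lists against control had medians of 0.23 for latency, -0.45 for Smad signalling, -0.28 for response genes and 0.03 for the BMP branch, beside -0.06 for all genes. Thbs1 was at 0 in all 16 losartan+anti-PD1 cells, and Ctgf, a classical target, was at 0.0676 TP100K in losartan+anti-PD1 cells, against 2.85 TP100K in control cells (-1.85). The corepressor gene Tgif1 was at 1.38 TP100K with losartan+anti-PD1 and 6.52 TP100K in control cells (-1.66), and Smad4 had a log2 ratio of -1.74. Junb was the other way, at 230 TP100K with losartan+anti-PD1, against 113.7 TP100K in control cells (1.01) and 65.2 TP100K with anti-PD1 alone (1.80). Against anti-PD1 alone, Ltbp4 was at 8.07 TP100K with losartan+anti-PD1 and 23.1 TP100K with anti-PD1 (-1.41), and Acvrl1 at 17.8 TP100K with losartan+anti-PD1 and 33.1 TP100K with anti-PD1 (-0.86). Tsc22d1 was at 182.2 TP100K with losartan+anti-PD1 and 369.9 TP100K with anti-PD1 (-1.02). Higher against anti-PD1 were Bhlhe40 (16.9 TP100K with losartan+anti-PD1, 4.95 TP100K with anti-PD1, 1.59), Ltbp3 (1.57), Bmp2 (1.52) and Bmp4 (1.35). The list medians in this comparison were -0.05 for latency, -0.08 for Smad signalling, 0.26 for response genes (9 of 12 above 0) and 0.29 for the BMP and ALK1 branch, beside -0.15 for all genes. Only 16 cells stand behind every losartan+anti-PD1 value here. Cluster 3 held 31.25% of losartan+anti-PD1, 98.7% of anti-PD1 and 6.98% of control cells, and the part of the clusters was not tested.

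Malignant cells of both sorts gave few 2-fold differences between treatments. On the CD31-positive plates, 25 losartan and 51 losartan+anti-PD1 cells were set against 33 control cells. Tgfb3, the malignant ligand, was above 0 in 60% of losartan cells (interval 38.7 to 78.9%) and 64.7% of losartan+anti-PD1 cells (50.1 to 77.6%), against 39.4% of control cells (22.9 to 57.9%). Its means were 1.66 and 2.22 TP100K, against 1.18 TP100K in control cells, with highest cells of 12.6, 10.8 and 7.55 TP100K, and the intervals and ranges overlap. In the CD45-negative sort, which was prepared on other plates, Tgfb3 was above 0 in 57.4% of 47 losartan, 45.5% of 44 losartan+anti-PD1 and 44.9% of 49 control cells. The log2 ratios of Tgfb3 to control were 0.29 and 0.56 on the CD31-positive plates and 0.19 and 0.57 on the CD45-negative plates, losartan before losartan+anti-PD1, none of them 2-fold.

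The receptors of malignant cells were low, and the pseudocount of 1 TP100K shrinks their ratios. Tgfbr1 had means of 0.446 TP100K with losartan and 0.469 TP100K with losartan+anti-PD1, against 0.481 TP100K in control cells of the CD31-positive sort. In the CD45-negative sort they were 4.78 and 4.97 TP100K, against 5.48 TP100K in control cells. Tgfbr2 log2 ratios ran between -0.45 and 0.14 over the 4 comparisons, and Smad7 ratios between -0.05 and 0.21. Without the pseudocount, on the CD31-positive plates, the mean of Tgfbr2 was 0.527 times control with losartan, and that of Smad7 was 2.04 times control with losartan and 2.54 times with losartan+anti-PD1, from means of 0.233 and 0.291 TP100K against 0.115 TP100K in control cells. Tgfbr3 was at 0 in every malignant cell of these arms in the CD45-negative sort. On the log2 scale used throughout, Tgfbi and Eng were beyond 2-fold, both with losartan on the CD31-positive plates.

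Tgfbi was above 0 in 14 of 25 losartan and 16 of 51 losartan+anti-PD1 cells, against 8 of 33 control cells of the CD31-positive sort, with means of 9.50, 1.36 and 1.71 TP100K in that order. A single cell at 131.9 TP100K gave 55.6% of the losartan sum, and without the highest cell of each group the log2 ratio was 1.54 in place of 1.95. In the CD45-negative sort Tgfbi was above 0 in 25.5% of losartan and 31.8% of losartan+anti-PD1 cells, against 36.7% of control cells, and its log2 ratio was 0.16 with losartan. The higher Tgfbi of losartan cells was thus not seen in that sort. Eng had a mean of 2.15 TP100K with losartan and 0.0272 TP100K in control cells, but 1 losartan cell held 99% of the sum, and that cell had 579 TP100K of the endothelial gene Cldn5. Without cells that carried endothelial markers the log2 ratio was -0.0077 in place of 1.62. The plot of malignant shares shows both sorts.

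**Figure D3:**
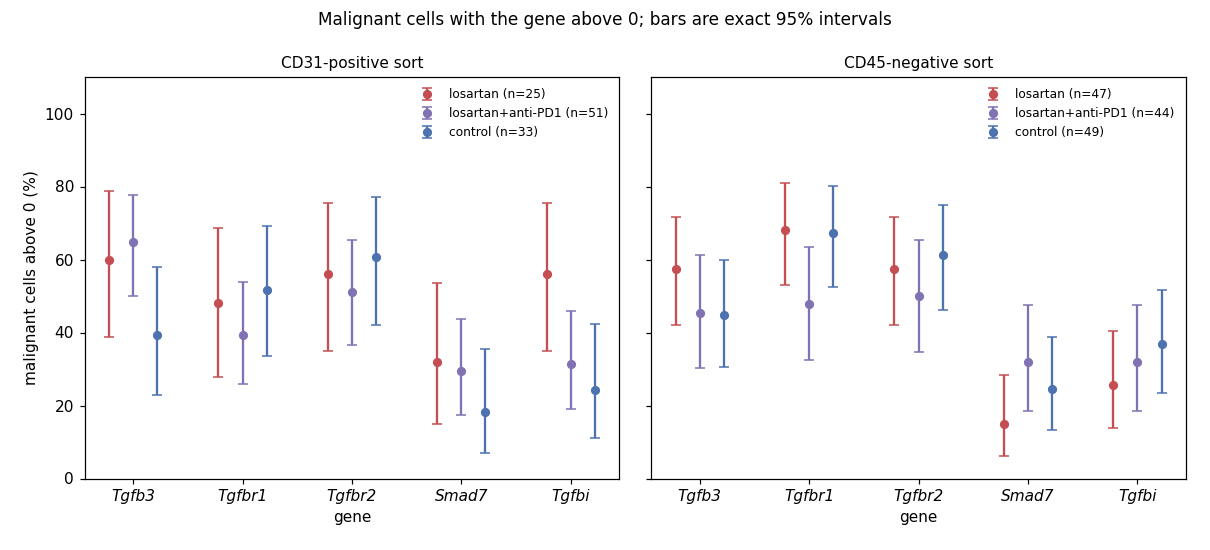
The share of malignant cells above 0 (percent, vertical axis, bars for exact 95% intervals) is drawn for each gene and treatment in the CD31-positive and the CD45-negative sort. Tgfb3 lies at 60% with losartan, 64.7% with losartan+anti-PD1 and 39.4% in control cells of the CD31-positive sort, with intervals that overlap.

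Against the background, 2 of 6 measured members were 2-fold apart in losartan malignant cells of the CD31-positive sort, where 1.9% of all genes were, and 0 of 5 with losartan+anti-PD1, where 1.31% were. In the CD45-negative sort it was 0 of 5 with losartan, where 1.65% were, and 0 of 5 with losartan+anti-PD1, where 2.28% were. The 2 were Tgfbi and Eng, whose losartan sums lay mostly in 1 cell each, though not to the same degree. Of 7 alternatives, Tgfbi stayed 2-fold in 5 and kept its sign in all 7. Eng stayed 2-fold in 3 and kept its sign in 6. The median log2 ratio of the members was 0.22 with losartan and -0.01 with losartan+anti-PD1 on the CD31-positive plates, and 0.14 and 0.03 on the CD45-negative plates, beside -0.06, -0.02, 0.08 and -0.02 for all genes. Tgfb1, Tgfb2 and Tgfbr3 gave no ratio in malignant cells, since they were above 0 in under 10% of the cells of every group compared. Malignant cells of anti-PD1 tumors numbered 8 in each sort, and in these Smad7 and Tgfbi were at 0 throughout.

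Most measured pathway genes were within 2-fold of control in malignant cells on the log2 scale used here, and Col3a1 was 2-fold higher in 3 of the 4 comparisons. Col3a1, a fibrillar collagen and TGF-beta response gene, was above 0 in 51% of losartan+anti-PD1 cells (mean 2.79 TP100K) and 12.1% of control cells (mean 0.272 TP100K) of the CD31-positive sort, a log2 ratio of 1.57. In the CD45-negative sort it was above 0 in 36.4% of losartan+anti-PD1 cells and 12.8% of losartan cells, against 4.08% of control cells, with log2 ratios of 2.13 and 1.71. Within these groups 29.1% of the losartan+anti-PD1 sum and 59.1% of the losartan sum lay in 1 cell, and 97.6% of the control sum did. Markers of mural cells and fibroblasts, which also make collagen, summed to a mean of 1.84 TP100K with losartan+anti-PD1 and 70.8 TP100K with losartan, against 17.4 TP100K in control cells of that sort. Ltbp1, a latency protein, was at 2.91 TP100K with losartan and 3.71 TP100K with losartan+anti-PD1, against 0.45 TP100K in control cells of the CD45-negative sort (1.43 and 1.70). Smad3 there had log2 ratios of 0.68 and 1.01. With losartan, 11 of 13 measured response genes were above 0 there (median 0.42, 1 of them 2-fold higher and 0 lower). The median of all genes in that comparison was 0.08, and 1.65% of them were 2-fold apart. On the CD31-positive plates with losartan, Bhlhe40 was at 4.43 TP100K against 1.15 TP100K in control cells (1.34), and the Id1 ratio of 2.28 rested on 1 cell with 88.8% of the losartan sum. All other lists in malignant cells had at most 2 genes at 2-fold, all of them higher.

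T cells were compared with 76 losartan, 84 losartan+anti-PD1, 88 anti-PD1 and 79 control cells, at medians of 1954, 2135, 2064.5 and 2039 genes. Tgfbr2, through which TGF-beta restrains T cells, was above 0 in 34.2% of losartan, 32.1% of losartan+anti-PD1 and 38.6% of anti-PD1 cells, against 30.4% of control cells. Its means were 6.35, 3.34 and 6.74 TP100K, against 6.10 TP100K in control cells, and the highest cells were 81.5, 60.1, 56.4 and 79.2 TP100K. The shares lie within each other's counting error, and the lower mean with losartan+anti-PD1 (log2 ratio -0.71 to control and -0.83 to anti-PD1) was not 2-fold. Within 2 deposited clusters of T cells the Tgfbr2 log2 ratio of losartan+anti-PD1 to control had opposite signs, -1.11 in cluster 0 (72 losartan+anti-PD1 and 59 control cells) and 0.90 in cluster 4 (12 losartan+anti-PD1 and 20 control cells). In T cells with 2000 to 6000 genes it was 0.43. The clusters were filled unevenly, with 5.26% of losartan, 14.3% of losartan+anti-PD1 and 63.6% of anti-PD1 T cells in cluster 4, against 25.3% of control T cells.

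Tgfbr3 was above 0 in 11 of 76 losartan and 2 of 84 losartan+anti-PD1 cells, in 11 of 88 anti-PD1 cells and in 4 of 79 control cells, with means of 1.02, 0.23, 0.63 and 0.15 TP100K in that order. Smad7 was above 0 in 9.21% of losartan, 10.7% of losartan+anti-PD1 and 12.5% of anti-PD1 cells, against 11.4% of control cells. Tgfb2 was at 0 in every T cell, and Tgfb1 was seen in 2, 3 and 1 cells of the treated arms and in 7 control cells. Tgfbr1 was above 0 in 6.58% of losartan, 8.33% of losartan+anti-PD1 and 11.4% of anti-PD1 cells, against 6.33% of control cells, and Tgfb3 and Eng were read in 3 T cells each.

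Tgfbi in T cells came with macrophage reads in part. Reads were found in 5 losartan, 3 losartan+anti-PD1 and 1 anti-PD1 cells, against 9 control cells, and the means were 4.37, 0.25, 0.01 and 3.93 TP100K. The log2 ratio of -1.98 for losartan+anti-PD1 against control was the only 2-fold difference of the members in T cells. Myeloid markers summed to over 100 TP100K in 2 of the 5 losartan, 0 of the 3 losartan+anti-PD1, 1 of the 1 anti-PD1 and 3 of the 9 control T cells with Tgfbi, against 3 of 71, 3 of 81, 7 of 87 and 2 of 70 of the T cells without it. Without T cells that carried macrophage and microglia markers the log2 ratio of losartan+anti-PD1 to control was -1.66. NK markers also differed between the T cell groups, with mean sums of 16.7 TP100K with losartan, 85.7 with losartan+anti-PD1 and 50.4 with anti-PD1, against 288 TP100K in control cells.

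In T cells, 0 of 4 measured members were 2-fold apart with losartan, where 10.2% of genes were. With losartan+anti-PD1 it was 1 of 3 against control, where 8.08% of genes were, and 0 of 4 against anti-PD1, where 11.6% were. The members' median log2 ratio in these comparisons was 0.12, -0.71 and -0.41, beside 0.02, 0.03 and 0.01 for all genes. Pathway lists in T cells had 0 genes at 2-fold in both comparisons with control. Against anti-PD1, Itgae, the integrin chain CD103 that TGF-beta is known to induce in T cells, was at 2.53 TP100K in 5.95% of losartan+anti-PD1 cells and at 8.60 TP100K in 26.1% of anti-PD1 cells (-1.44). Furin, which cleaves the ligand precursor, was at 2.63 TP100K with losartan+anti-PD1 and 0.367 TP100K with anti-PD1 (1.41), and the cell cycle inhibitor gene Cdkn1a at 6.46 TP100K with losartan+anti-PD1 and 1.70 TP100K with anti-PD1 (1.47). Within the deposited clusters, a split chosen after these values were seen, Furin and Cdkn1a had ratios of opposite sign. In cluster 0 (72 losartan+anti-PD1 and 32 anti-PD1 cells) the log2 ratios were -1.17 for Itgae, 1.39 for Furin and 1.17 for Cdkn1a. In cluster 4 (12 losartan+anti-PD1 and 56 anti-PD1 cells) they were -2.79 for Itgae, -0.21 for Furin and -0.32 for Cdkn1a. Pmepa1, a feedback inhibitor, was above 0 in 10.7% of losartan+anti-PD1 and 30.4% of control cells (-0.68).

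With losartan, microglia held the 2 largest log2 ratios of the members, and the resident microglia markers differed with them. The losartan group had 30 cells, losartan+anti-PD1 13, anti-PD1 8 and control 28. The 6 microglia markers summed to a mean of 1250.3 TP100K with losartan (0 of 6 genes at 0 in all cells) and 15.2 TP100K with losartan+anti-PD1 (3 of 6 at 0), against 60.3 TP100K in control cells (1 of 6, Sall1, at 0). The macrophage markers, which microglia share with other phagocytes, summed to 1019, 874 and 615 TP100K in the same order. So cells with the microglia label were not alike between treatments.

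Tgfbr1 was above 0 in 22 of 30 losartan microglia with a median of 66.6 TP100K, a mean of 104.4 TP100K and a highest cell of 367.5 TP100K. With losartan+anti-PD1 it was above 0 in 4 of 13 cells (mean 9.18, highest 57.8 TP100K). In control cells it was above 0 in 18 of 28 with a median of 12.98 TP100K, a mean of 17.6 TP100K and a highest cell of 71.1 TP100K. The log2 ratio for losartan was 2.51, and the groups overlap at their low end. Among cells with reads of P2ry12, Tmem119, Siglech or Sall1, Tgfbr1 was above 0 in 19 of 19 losartan cells with a mean of 160.5 TP100K and in 11 of 12 control cells with a mean of 23.4 TP100K. In these cells the markers themselves differed, with P2ry12 at 325 TP100K with losartan and 8.35 TP100K in control cells. Among cells without any of these reads, Tgfbr1 was above 0 in 3 of 11 losartan cells (mean 7.54 TP100K) and in 7 of 16 control cells (mean 13.2 TP100K), so the log2 ratio was -0.73. The higher Tgfbr1 of losartan microglia thus lay in cells with resident microglia markers. The cells also fell into 2 deposited clusters. Cluster 6 held 24 losartan and 16 control microglia, with Tgfbr1 means of 130.5 TP100K with losartan and 23.8 TP100K in control cells. Cluster 11 held 6 losartan and 12 control microglia, and Tgfbr1 was above 0 in 0 of the 6 losartan and 3 of the 12 control cells. Smad7 was above 0 in 11 of 24 losartan and 1 of 16 control cells of cluster 6, and in 3 of 6 losartan and 0 of 12 control cells of cluster 11.

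Smad7 differed also in cells without those markers. Its reads were found in 14 of 30 losartan microglia (46.7%, interval 28.3 to 65.7%; mean 9.89, highest 106.3 TP100K) and 1 of 13 losartan+anti-PD1 microglia, against 1 of 28 control microglia (3.57%, interval 0.0904 to 18.3%; mean 0.0494 TP100K), a log2 ratio of 3.38 for losartan. The losartan and control intervals do not overlap, although most cells of both groups were at 0. With resident markers, 8 of 19 losartan and 1 of 12 control cells had Smad7 reads. Without them, 6 of 11 losartan and 0 of 16 control cells had them, and 71.2% of that losartan sum was in 1 cell. Thinned to 50000 counts per cell, which left out 3 shallower control cells, the shares were 43.3% with losartan and 4% in control cells. The ratio stayed 2-fold in 8 of 9 alternatives, in a range of 0.98 to 6.06.

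Tgfbi was lower in losartan microglia. The gene was above 0 in 53.3% of losartan cells (median 0.22, mean 188.1, highest 1392 TP100K) and 92.3% of losartan+anti-PD1 cells (median 143.8, mean 201.3, highest 742 TP100K), against 89.3% of control cells (median 314, mean 322, highest 854 TP100K). The log2 ratios of -0.77 and -0.67 were not 2-fold and the ranges overlap from 0 upwards. In cells with resident markers Tgfbi had a mean of 174.6 TP100K with losartan and 492 TP100K in control cells, and in cells without them 211.5 TP100K with losartan and 194.1 TP100K in control cells. Tgfbr2 had means of 27 TP100K with losartan and 20.7 TP100K with losartan+anti-PD1, against 19.7 TP100K in control cells. Eng was above 0 in 8 of 30 losartan, 0 of 13 losartan+anti-PD1 and 5 of 28 control cells, with log2 ratios of 1.64 and -1.15, and Tgfb1 ratios were 0.07 and -0.18.

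**Figure D4:**
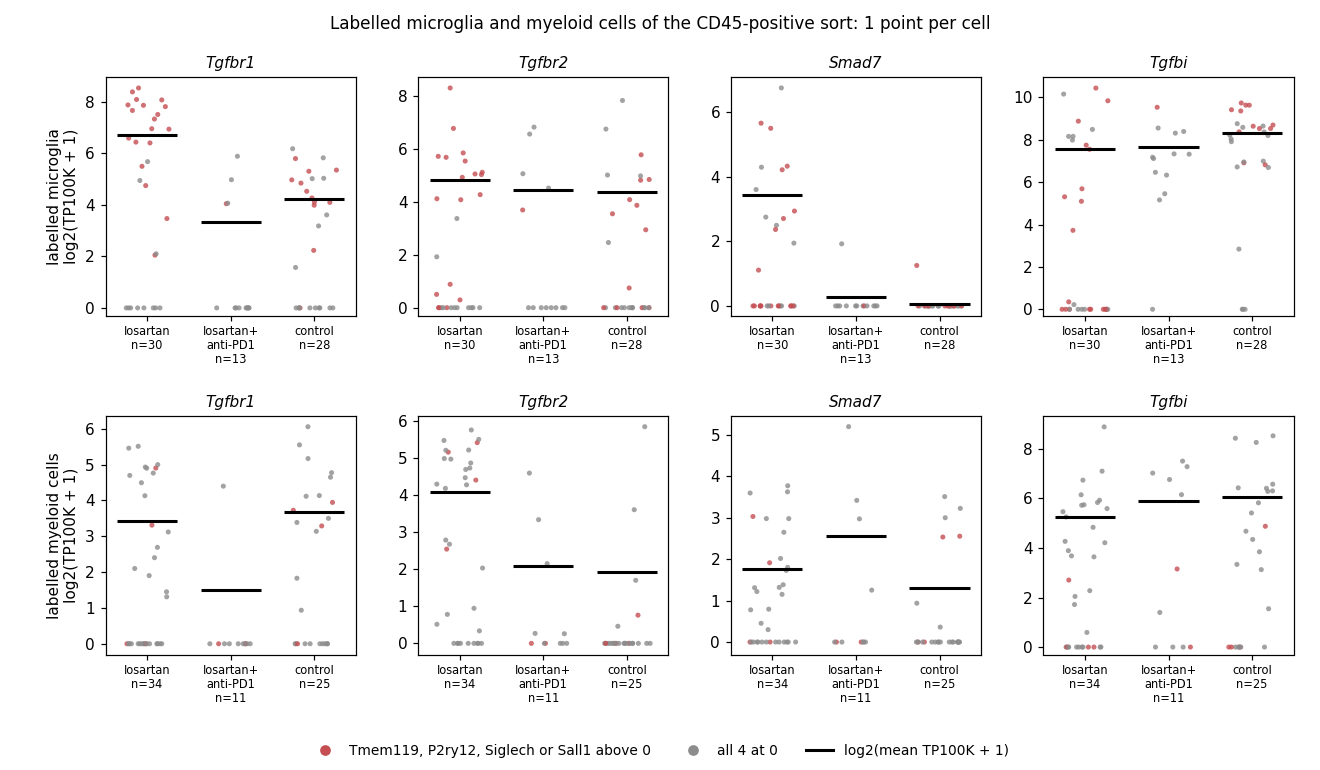
Each point is 1 cell of the CD45-positive sort labelled microglia or myeloid, with log2(TP100K + 1) on the vertical axis for Tgfbr1, Tgfbr2, Smad7 and Tgfbi, treatments along the horizontal axis, colour for any reads of Tmem119, P2ry12, Siglech or Sall1 and a line at log2(mean + 1). High Tgfbr1 in losartan microglia (mean 104.4 TP100K, against 17.6 TP100K in control) lies in cells with these markers, while Smad7 is above 0 in losartan cells of both colours.

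With losartan, 3 of 6 measured members were 2-fold higher in microglia, where 28.7% of all genes were 2-fold apart, and the members' median log2 ratio was 1.04 beside 0.23 for all genes. With losartan+anti-PD1, 1 of 5 members was 2-fold apart, where 35.4% of genes were, with medians of -0.67 for the members and -0.25 for all genes. Tgfb2, Tgfb3 and Tgfbr3 were above 0 in too few microglia for a ratio. The anti-PD1 group of 8 cells was not compared. In it Tgfbr1 was above 0 in 7 cells, Tgfbr2 in 6 and Smad7 in 2, and 6 of the 8 had resident markers. Losartan microglia found on the CD3-positive plates were 7 cells, of which 4 had Tgfbr1, 5 Tgfbi and 2 Smad7 reads.

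With losartan, 14.6% of all genes in myeloid cells were 2-fold apart from control, and of the 6 measured members only Tgfbr2 was. Reads were found in 25 of 34 losartan cells (73.5%, interval 55.6 to 87.1%) and in 5 of 11 losartan+anti-PD1 cells, against 5 of 25 control cells (20%, interval 6.83 to 40.7%). The median was 11.5 TP100K with losartan and 0 in control cells, the mean was 15.96 TP100K with losartan and 2.82 TP100K in control cells, and the highest cell was 52.7 TP100K with losartan and 56.1 TP100K in control cells, so the ranges overlap. The log2 ratio of 2.15 was 2-fold in all 7 alternatives, between 1.02 and 3.31, and 79.5% of the control sum came from 1 cell. Thinned to 50000 counts per cell, the shares were 61.8% with losartan and 12% in control cells. Losartan myeloid cells had a median of 4591 genes and control cells 3859. Dendritic cell markers, a myeloid subset's genes, summed to 2061 TP100K with losartan and 1505 TP100K in control cells, and macrophage markers to 97.4 TP100K with losartan and 93.2 TP100K in control cells. The part of the subset makeup in the Tgfbr2 difference was not tested.

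Both receptors were read in 14 of 34 losartan myeloid cells (41.2%, interval 24.6 to 59.3%) and 1 of 11 losartan+anti-PD1 cells, against 4 of 25 control cells (16%, interval 4.54 to 36.1%). Tgfbr1 was close to control with losartan, at 9.73 TP100K against 11.9 TP100K, but was above 0 in only 1 of 11 losartan+anti-PD1 cells (log2 ratio -2.19). Smad7 was above 0 in 20 of 34 losartan and 4 of 11 losartan+anti-PD1 cells, against 7 of 25 control cells, with means of 2.38, 4.85 and 1.46 TP100K in that order. Its log2 ratio of 1.25 with losartan+anti-PD1 was 0.42 without the highest cell of each group. Tgfbi was at 36.8 TP100K with losartan and 59.3 TP100K with losartan+anti-PD1, against 65.6 TP100K in control cells, with 64.7%, 63.6% and 68% of cells above 0. Tgfb3 was read in 2 of 11 losartan+anti-PD1 cells, in 0 losartan cells and in 1 control cell (log2 ratio 2.66 with losartan+anti-PD1). With losartan, 1 of 6 measured members was 2-fold apart, where 14.6% of genes were, and with losartan+anti-PD1 3 of 7 were, where 32.5% were. The members' median was -0.42 and 0.16 in these comparisons, beside 0.13 and -0.14 for all genes. Tgfb2 and Tgfbr3 were at 0 in every myeloid cell of this sort.

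NK and B cells allowed 1 comparison each. In NK cells, 36 losartan+anti-PD1 cells were set against 10 control cells. Tgfbr2, which TGF-beta uses to restrain NK cells, was above 0 in 47.2% with losartan+anti-PD1 and in 50% of control cells (log2 ratio -0.33), and Tgfb1 had a mean of 1.93 TP100K in both. Tgfbr1 was read in 5 losartan+anti-PD1 cells and 1 control cell (1.26), Smad7 in 6 losartan+anti-PD1 and 4 control cells (-1.43), and Tgfbi in 1 losartan+anti-PD1 and 3 control cells (-2.42). Thus 3 of 5 measured members were 2-fold apart, where 34.6% of genes were, with medians of -0.33 for the members and 0.04 for all genes. In B cells, 12 losartan+anti-PD1 cells were set against 13 anti-PD1 cells. Tgfbr2 had a mean of 4.50 TP100K with losartan+anti-PD1 and 17.1 TP100K with anti-PD1 (-1.72), and Smad7 was read in 3 cells, 1 of which held 95.4% of the sum, and in 0 of 13 anti-PD1 cells. Of 3 measured members 2 were 2-fold apart, where 39.6% of genes were, with medians of -0.11 for the members and 0.04 for all genes.

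The share of cells with any of the 3 ligands was 38.6% with losartan, 31.3% with losartan+anti-PD1 and 32.9% with anti-PD1, against 25.6% of control endothelial cells. Over all treatments it was 58.1% and 50% of malignant cells in the CD31-positive and CD45-negative sorts, 30.4% of microglia, 27.4% of myeloid cells, 28.3% of NK cells, 6.06% of B cells and 4.89% of T cells. Oligodendrocytes of the CD45-negative sort, 29 of them from anti-PD1 tumors, had no losartan or control group of 10 cells, so Smad7 in 24 of the 29 (mean 5.88 TP100K) stands without a comparison.

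To see which genes varied most like each member, mean levels were correlated over 11 groups of the TPM sorts and over 14 groups of the count sorts, and the 2 values of r were averaged for 12716 genes. No group of the count sorts that entered was endothelial, so endothelial levels enter only the r of the TPM sorts. Most like Tgfb2 were Esam and Apcdd1 (both 0.95), the first an adhesion molecule of endothelial junctions. In the count sorts alone both had an r of 0.999 with Tgfb2, which was rarely read there. It was above 0 in 6.08% of malignant cells and 2.53% of microglia over all treatments, so that r rests on few cells. Most like Tgfb3 were Ptprf (0.98) and Specc1 (0.90), and most like Eng were Ltc4s and Anxa3 (both 0.88). Tgfbr1 went with Tnfsf13b (0.78) and Clta (0.77), Tgfbr2 with Rreb1 (0.86) and Arpc3 (0.84), and Tgfbr3 with Mgmt (0.90) and Fzd6 (0.85). Tgfb1 went with Ppp1r18 (0.82) and Spata13 (0.81), Smad7 with Bcl9l (0.84) and Smarca2 (0.78), and Tgfbi with Rhov (0.72) and Lpcat2 (0.70). The groups share plates and depth, so these values describe the order of the group means that entered and carry no test.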

How the data were processed

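The deposited table holds 1 column per cell. For the CD31-positive and CD3-positive sorts the authors' values are TPM, and for both CD45 sorts they are expected counts, as judged from the values (78.7% of the values above 0 in the CD45 sorts are exactly whole). The submitters' processing notes name RSEM 1.2.8, TopHat, Bowtie and build mm10. Cells kept by the authors had between 1000 and 8000 genes and 20 or more housekeeping genes. Groups came from the treatment labels, and cell types and clusters from the deposited annotation. Each cell was scaled to a sum of 100000. Means, shares above 0 and log2 ratios (pseudocount 1) were computed in Python 3.11.15 with pandas 2.3.3, NumPy 2.4.6 and SciPy 1.17.1, and drawn with matplotlib 3.10.9. The ratio step was checked on simulated data in which 200 genes were changed. These were drawn from better-read genes, so the check does not cover genes as low as many members here. Comparisons needed 10 cells per group. All 9 members were named, and of each pathway list the rule took the 2 highest and 2 lowest log2 ratios per endothelial, malignant and T cell comparison. Members and lists were chosen with earlier results of these data known. Of 61 distinct pathway genes 60 were in the table. Alternatives covered the pseudocount, the low-value filter, scaling, depth, clusters, the highest cell and marker-defined cells.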

Additional observations from a re-analysis of the deposited data

Results flagged for a closer look

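Among cells of the CD45-positive sort, 2 members had opposite 2-fold differences in 2 cell types under losartan+anti-PD1 against control. The log2 ratio of Tgfbr1 was -2.19 in myeloid cells and 1.26 in NK cells. The log2 ratio of Smad7 was 1.25 in myeloid cells and -1.43 in NK cells. Among all genes, 32.5% were 2-fold apart in myeloid cells and 34.6% in NK cells in these comparisons. The share of all genes with opposite 2-fold differences in both cell types is not given. The 2 members therefore stand without that background, and opposite signs are not a result about them. Of 7 alternatives, Tgfbr1 stayed 2-fold in 6 in myeloid and 4 in NK cells, and Smad7 in 4 and 5. The few NK cells with reads of either gene are given above. Over the alternatives, the Tgfbr1 ratios ranged from -3.41 to -0.89 in myeloid cells and from 0.23 to 2.52 in NK cells. Those of Smad7 ranged from 0.37 to 1.67 in myeloid cells and from -1.93 to -0.43 in NK cells. The differences between the cell types were not tested, since each treatment had 1 sample, and each ratio rests on 11 myeloid or 36 NK cells with losartan+anti-PD1 against 25 or 10 control cells.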

How the results depend on the processing

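No paired analysis was possible because the result comes from no test, with 1 sample per treatment. With no replicates, a value counted as moved when it differed from the reported one by more than 1.5-fold, and 13 alternative medians of the members did. In endothelial cells the median was 0.75 with a 25% filter for losartan, and -0.44 with 75th-percentile scaling for losartan+anti-PD1, both against control. With 2000 to 6000 genes per cell, losartan+anti-PD1 against control gave 0.58 in malignant cells of the CD31-positive sort (7 and 5 cells) and -0.59 in the CD45-negative sort (11 and 8 cells). In T cells losartan+anti-PD1 against control gave -0.066 without a filter and 0.85 within cluster 4. In microglia losartan against control gave 0.41 with a pseudocount of 10, 0.43 without a filter and 0.12 in cells without resident markers, and losartan+anti-PD1 gave 0.00 without a filter. In B cells losartan+anti-PD1 against anti-PD1 gave 0.55 with a 25% filter, -1.72 with 2000 to 6000 genes and -1.05 without the highest cell. Among 645 alternative values of single genes 516 did not move, and 69 had the other sign, most of them from ratios that were not 2-fold. Of the 2-fold ratios 4 changed sign, all under alternatives chosen after seeing the data. These were, with losartan against control, Eng in malignant cells of the CD31-positive sort, -0.0077 without cells with endothelial markers, and Tgfbr1 in microglia, -0.73 without resident markers, and, in T cells of cluster 4 with losartan+anti-PD1 against anti-PD1, Furin (-0.21) and Cdkn1a (-0.32). The causes were not tested. Depth limits low genes most: members read in under 10% of cells of both groups gave no ratio, and a cell at 0 can have missed the gene.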

Other observations

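Microglia with losartan also differed from control microglia in other genes of the pathway, named here after their values were seen. Sparc, a matrix protein that resident microglia are known to express, had a mean of 56.6 TP100K with 46.7% of losartan cells above 0, against 0 of 28 control cells. Pmepa1, a feedback inhibitor of the pathway, was at 19.8 TP100K with losartan and 3.04 TP100K in control microglia (log2 ratio 2.36), and the integrin gene Itgb5 at 22.9 TP100K with losartan and 4.97 TP100K in control microglia (2.0). Furin, which cleaves the ligand precursor, was the other way, at 3.21 TP100K with losartan and 15.9 TP100K in control microglia (-2.01). Of the 4 lists, where 28.7% of all genes were 2-fold apart, Smad signalling had 5 genes 2-fold higher and 1 lower of 14 measured, response genes 3 higher and 1 lower of 11, latency genes 1 higher and 1 lower of 6, and the BMP and ALK1 branch 4 higher and 0 lower of 8. The resident markers that differ between these groups stand beside Tgfbr1 above, and their part in these values was not tested. In myeloid cells Itgae, which encodes CD103, was at 3.95 TP100K with losartan+anti-PD1 and 40.7 TP100K in control cells (-3.07). This gene too was named after its value was seen. The comparison had 11 losartan+anti-PD1 and 25 control cells, and 32.5% of all genes were 2-fold apart in it. The part of the subset makeup of myeloid cells was not tested.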
